A study of Mus musculus with 4 samples.

Results

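The genes described here build and anchor the actin cytoskeleton: 42 genes, chosen by name from the 52535 gene models of each count file, that encode actins, their turnover factors, filament nucleators, crosslinkers, tropomyosins, non-muscle myosin II and the proteins of focal adhesions. All 42 were present in the files and 41 had enough reads to be tested. Expression was measured by RNA sequencing of mouse pancreatic ductal cells (strain C57BL/6) in 2 wild type libraries, called WT 1 and WT 2, and 2 libraries labelled Lats1/2 knockout, called KO 1 and KO 2. The knockout genotype is Lats1fl/fl; Lats2fl/fl; Sox9-CreER. It joins floxed alleles of both kinases to a tamoxifen-activated Cre recombinase made in cells that express Sox9. Cells without Sox9 at induction, and not derived from cells that had it, keep both kinases. The labels used here do not state age, sex, the time since induction, whether wild type mice received tamoxifen or how the cells were isolated.

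Actin polymerises from monomers into filaments, formins and Ena/VASP proteins extend them, and alpha-actinins, filamins, tropomyosins and myosin II turn them into contractile bundles. At focal adhesions, talin and kindlin activate integrins, and vinculin, paxillin, zyxin and related adaptors join the integrin tails to those bundles. LATS1 and LATS2 phosphorylate and restrain YAP and TAZ, whose activity rises with actin tension, and several genes of cytoskeletal proteins are in turn known targets of YAP with TEAD factors and of SRF with MRTF cofactors. In pancreatic duct these proteins hold the shape of the cell and its attachment to the basement membrane.

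Library totals ran from 3566387 to 5925601 counts. The targeted genes were not reduced in KO 1 or KO 2. Lats1 stood at 50.8 and 65.6 CPM (counts scaled to library size) in wild type against 70.0 and 79.2 CPM, and Lats2 at 114 and 102 CPM against 163 and 121 CPM. Counts over whole gene models also include transcripts that lose only some exons, so these values do not check the deletion. Markers of other tissue were present. A list of 12 duct markers, none at 0 in either group, took 0.218% and 0.248% of wild type counts against 1.50% and 1.62% in KO 1 and KO 2, and 10 of its genes passed as higher. A list of 12 acinar markers took 5.66% and 9.32% in wild type and 0.0164% and 0.409% in the libraries labelled knockout, where 1 was at 0 in both, and 1 of 11 tested passed as lower. The wild type libraries therefore held more acinar than duct marker RNA despite their label. In bulk RNA, fewer cells of a type and less RNA per cell cannot be told apart.

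**Figure D1:**
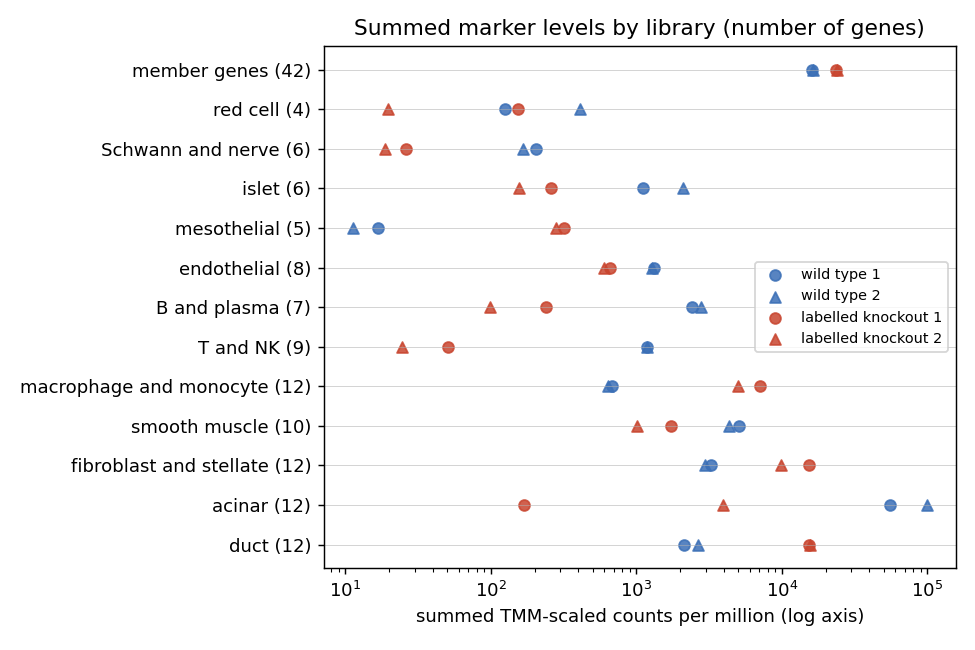
Summed TMM-scaled CPM (log axis) of each marker list and of the 42 member genes, 1 point per library, with the number of genes in brackets. Duct, fibroblast, macrophage and mesothelial sums were higher in both libraries labelled knockout. Acinar, smooth muscle, lymphocyte, endothelial, islet and nerve sums were lower, and red cell sums overlapped. The member genes moved from about 16108 and 16343 to 23739 and 23913. Of 12 fibroblast markers 9 passed as higher and 1, Thy1, as lower. Of 4 tested mesothelial markers 2 passed as higher and 0 as lower. Col1a1, Col1a2 and Col3a1 were the largest parts of the fibroblast sum, and Msln of the mesothelial sum.

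Promoters of 34 of the 42 genes were found in RefSeq (GRCm38.p6, 300 bases from 250 before to 50 after the start site) and searched on both strands for binding motifs of factors tied to these genes. A CArG box, the site bound by SRF, lay in 5 of 34 members (14.7%), against 1.58% of 10359 tested genes. A gene was counted if any of its promoters held the motif. Counted by promoter rather than by gene, 1.63% of all 32851 promoters held a CArG box. The TEAD core GGAATG was in 9 members (26.5%) against 14.5% of tested genes, and the AP-1 site TGANTCA in 4 (11.8%) against 6.56%. Genes with more than 1 listed start site had more than 1 window, 41 in all for the 34 members. These are matches of letters in a short window, not measured binding. The 250 bases before the start site of the 5 members with a CArG box are shown because their RNA went different ways: Actg1, Fermt2 and Vcl were higher in the libraries labelled knockout, Myl9 was lower and Lima1 did not pass. Capitals mark the CArG box and, in Vcl, also the TEAD core. The motifs of Vcl do not overlap. The windows are chr11:120348496-120348745 on the minus strand for Actg1, chr14:45530066-45530315 (minus) for Fermt2, chr14:20929148-20929397 (plus) for Vcl, chr2:156775214-156775463 (plus) for Myl9 and chr15:99820150-99820399 (minus) for Lima1. The box begins 90, 204, 227, 161 and 47 bases before the start site in that order, and the TEAD core of Vcl 143 bases before it. The start site used for Lima1 lies inside its gene model (99778470 to 99875428). The Lima1 counts are for the whole model, not for transcripts from that site alone.
Actg1: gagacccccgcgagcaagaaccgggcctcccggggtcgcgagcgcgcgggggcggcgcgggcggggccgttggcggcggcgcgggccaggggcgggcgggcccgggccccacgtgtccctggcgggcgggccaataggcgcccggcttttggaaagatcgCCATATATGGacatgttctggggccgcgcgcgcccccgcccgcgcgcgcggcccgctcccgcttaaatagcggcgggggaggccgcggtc
Fermt2: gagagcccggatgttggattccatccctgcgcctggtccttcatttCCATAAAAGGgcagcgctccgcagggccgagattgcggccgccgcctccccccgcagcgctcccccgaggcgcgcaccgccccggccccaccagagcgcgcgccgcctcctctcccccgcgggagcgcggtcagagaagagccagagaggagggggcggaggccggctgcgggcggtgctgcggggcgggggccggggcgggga
Vcl: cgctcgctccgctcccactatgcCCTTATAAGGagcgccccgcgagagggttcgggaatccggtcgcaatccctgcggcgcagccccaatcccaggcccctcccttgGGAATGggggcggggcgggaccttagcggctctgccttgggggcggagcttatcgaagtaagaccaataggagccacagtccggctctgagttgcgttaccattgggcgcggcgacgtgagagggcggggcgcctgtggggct
Myl9: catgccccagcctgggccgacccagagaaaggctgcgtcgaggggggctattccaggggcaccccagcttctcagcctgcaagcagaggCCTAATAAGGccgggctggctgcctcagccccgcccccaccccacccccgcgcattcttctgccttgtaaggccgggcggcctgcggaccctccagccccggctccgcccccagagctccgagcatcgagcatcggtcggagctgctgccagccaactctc
Lima1: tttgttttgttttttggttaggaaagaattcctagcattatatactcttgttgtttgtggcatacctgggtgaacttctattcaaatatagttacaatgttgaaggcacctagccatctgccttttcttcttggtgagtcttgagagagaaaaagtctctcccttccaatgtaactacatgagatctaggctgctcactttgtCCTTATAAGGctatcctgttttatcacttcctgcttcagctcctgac

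Most of these genes rose with the knockout label. Of 41 tested, 25 (61.0%) rose, 1 fell and 15 did not pass, where a gene passed at an adjusted p under 0.05 (edgeR's quasi-likelihood test, Benjamini-Hochberg over 13990 genes). Over all genes tested 22.0% were called higher and 20.2% lower. Of the 25, 16 rose more than 2-fold (39.0% of those tested, against 14.0% of all genes). In 33 members both libraries labelled knockout lay above both wild type libraries (80.5%, against 37.4% of all genes). The median log2 change of the 41 was 0.74, beside -0.0069 for all genes tested. The largest rises were those of Fermt1, Pdlim7, Cttn, Actn1, Tpm4, Myh10, Zyx, Enah and Ezr, and the gene that fell was Myl9. Summed over the 42 genes, the level was 1.47-fold higher, 1.64% and 1.54% of all counts in WT 1 and WT 2 and 2.32% and 2.49% in KO 1 and KO 2. The duct, fibroblast and macrophage marker sums were higher in the same libraries, and their part in these rises was not tested.

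**Figure D2:**
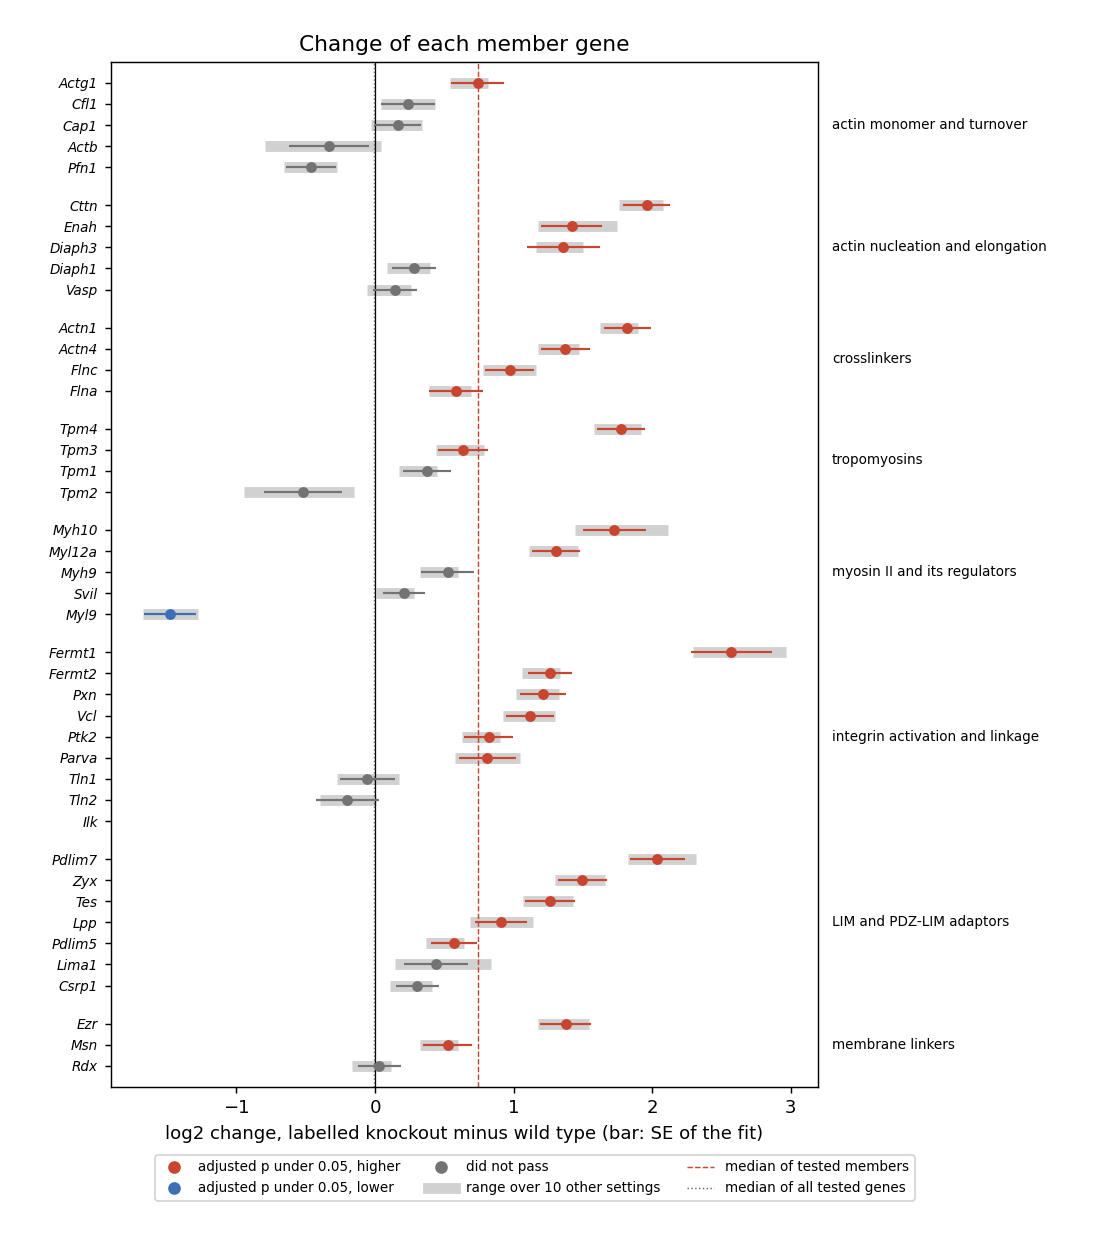
Log2 change of each tested member (labelled knockout minus wild type) with the SE of the fit, grouped by role and coloured by call, with a grey band for the range over 10 other settings. 25 points are higher and Myl9 alone is lower past the threshold, and the median of the members (dashed) lies at 0.74. Ilk was not tested and has no point.

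Leaving out a library left 19 to 24 members higher. The call was kept in all 10 alternative settings by 19 of the 25. The other 6, Actg1, Flna, Tpm3, Parva, Pdlim5 and Msn, were among the smaller rises and lost it in at least 1 setting, as given at each gene. With upper quartile scaling, which put the median of all genes at a log2 change of -0.20, 20 members were higher, 2 were lower and the members' median was 0.54. The share of higher genes among all called genes was 39.4% with it and 52.1% without it.

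The cytoplasmic actin genes differed in balance between the groups. Actg1, cytoplasmic gamma-actin (chromosome 11, 120345690 to 120348542 in mm10), had 1322 and 1442 CPM in wild type against 2277 and 2342 CPM in KO 1 and KO 2, with no overlap. It rose 1.67-fold, a log2 change of 0.74 ± 0.19 SE (edgeR adjusted p = 0.0146), but its call was lost without WT 1 (0.69, edgeR adjusted p = 0.225), without WT 2 (0.81, edgeR adjusted p = 0.127) or with upper quartile scaling (0.54, edgeR adjusted p = 0.0582). Actb, cytoplasmic beta-actin, was at 2416 and 2133 CPM in wild type against 1283 and 2332 CPM in KO 1 and KO 2. KO 1 was low and KO 2 lay between the wild type libraries. This spread, 0.86 on the log2 scale, was the widest of any member between KO 1 and KO 2, and Actb missed the threshold (log2 difference -0.33 ± 0.29 SE, edgeR adjusted p = 0.382). Its direction rested on a single library: without KO 2 the difference was -0.79 (edgeR adjusted p = 0.0158), and without KO 1 it was 0.039 (edgeR adjusted p = 0.889).

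The count ratio of the actin genes within a library does not depend on the scaling between libraries. Actb had 1.83 and 1.48 times the counts of Actg1 in WT 1 and WT 2, and 0.564 and 0.996 times in KO 1 and KO 2, so Actg1 had more counts than Actb in both libraries labelled knockout. Per kilobase of annotated exon, Actg1 made up 35.5% and 40.5% of the pair in wild type and 64.1% and 50.3% in KO 1 and KO 2. Actb ranked first and Actg1 next among the 42 genes by mean level per kilobase in wild type, and the order of these genes was the reverse in the libraries labelled knockout. With 2 libraries against 2, an exact two-sided permutation test of such a ratio cannot go below p = 0.333, so these ratios are given as values.

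The factors that feed monomers into filaments did not pass. Cfl1 (cofilin, which severs filaments) was at 918 and 962 CPM in wild type and 1241 and 973 CPM in KO 1 and KO 2, and Cap1, which recycles actin monomers, was at 347 and 339 CPM against 424 and 344 CPM. Pfn1 (profilin, which loads monomers with ATP and delivers them to formins) was at 426 and 449 CPM in wild type against 275 and 361 CPM in KO 1 and KO 2. Both libraries labelled knockout were below wild type for Pfn1, by -0.46 ± 0.18 SE on the log2 scale (edgeR adjusted p = 0.0699). Pfn1 passed as lower without KO 2 (-0.64, edgeR adjusted p = 0.0202) and with upper quartile scaling (-0.66, edgeR adjusted p = 0.0183). Cap1 turned from 0.16 to -0.032 with upper quartile scaling, and passed in neither.

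**Figure D3:**
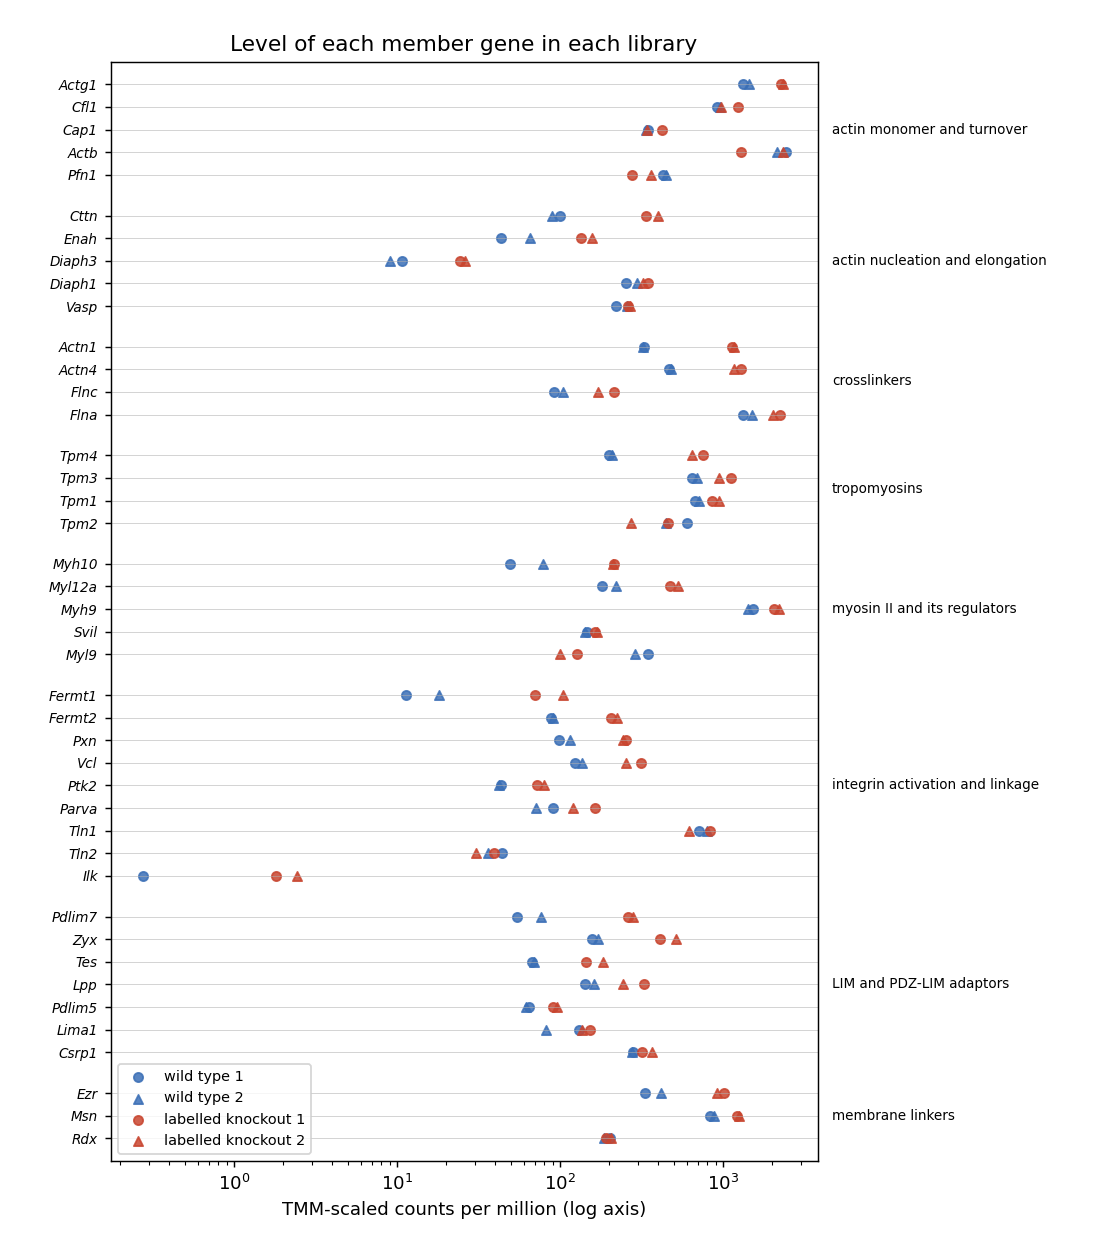
TMM-scaled CPM (log axis) of the 42 member genes in each of the 4 libraries, grouped by role, with replicate 1 as circles and replicate 2 as triangles. Libraries labelled knockout lie right of wild type for most genes, left of it for Myl9 and Pfn1, and mixed with it for Actb, Rdx, Tln1, Tln2, Tpm2 and Cap1. The 0 of Ilk in WT 2 cannot be drawn on this axis.

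Among nucleation and elongation factors 3 of 5 rose, beside 22.0% of all genes tested. Cttn encodes cortactin, which stabilises branched filaments at the cell cortex, and stood at 100.03 and 89.0 CPM in wild type against 338 and 397 CPM in KO 1 and KO 2. It rose 3.89-fold (log2 change 1.96 ± 0.17 SE, edgeR adjusted p = 7.39e-05), and the gap between groups was far wider than the gap within them. Enah (Mena, an Ena/VASP elongation factor) was at 43.4 and 65.2 CPM in wild type and 134 and 158 CPM in KO 1 and KO 2, a 2.67-fold rise (1.42 ± 0.22 SE, edgeR adjusted p = 0.00128). Diaph3, a formin at low level, went from 10.7 and 8.99 CPM to 24.4 and 26.1 CPM and rose 2.56-fold (1.36 ± 0.26 SE, edgeR adjusted p = 0.00382).

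Their close relatives did not pass. Vasp, the relative of Enah, was at 221 and 257 CPM in wild type and 260 and 267 CPM in KO 1 and KO 2 (log2 difference 0.14 ± 0.16 SE, edgeR adjusted p = 0.504), and its difference was -0.055 with upper quartile scaling. Diaph1, the relative of Diaph3, was at 254 and 296 CPM against 346 and 322 CPM (0.28 ± 0.16 SE, edgeR adjusted p = 0.191). In both pairs the less abundant gene lay closer to the more abundant one in KO 1 and KO 2. Vasp had 5.08 and 3.94 times the counts of Enah in WT 1 and WT 2 and 1.94 and 1.70 times in KO 1 and KO 2. The Diaph1 to Diaph3 count ratio went from 23.7 and 32.9 to 14.2 and 12.4.

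All 4 crosslinkers rose, beside 22.0% of all genes tested. Actn1 (alpha-actinin 1, which ties filaments into stress fibres and to adhesions) stood at 328 and 323 CPM in wild type and 1140.4 and 1159.8 CPM in KO 1 and KO 2, a 3.53-fold rise (log2 change 1.82 ± 0.17 SE, edgeR adjusted p = 0.000102). Replicates differed by under 2% of their level while the groups differed more than 3-fold. Actn4, alpha-actinin 4, was at 463 and 481 CPM in wild type and 1281 and 1162 CPM in KO 1 and KO 2, a 2.59-fold rise (1.37 ± 0.18 SE, edgeR adjusted p = 0.000499). The Actn1 share of the pair per exon kilobase was 44.0% and 42.6% in wild type and 49.7% and 52.5% in KO 1 and KO 2. Both alpha-actinins are expressed outside muscle.

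Filamins, large crosslinkers that also bind integrin tails, rose less. Flnc, known best from muscle, was at 91.2 and 105 CPM in wild type and 214 and 171 CPM in KO 1 and KO 2 (1.96-fold, edgeR adjusted p = 0.00308). Flna, the abundant form, was at 1331 and 1502 CPM against 2233 and 2013 CPM, a log2 change of 0.58 ± 0.20 SE (edgeR adjusted p = 0.0411). Its call was lost without WT 1 (0.51, edgeR adjusted p = 0.365), WT 2 (0.68, edgeR adjusted p = 0.194) or KO 1 (0.51, edgeR adjusted p = 0.0608), with DESeq2 size factors (0.57, edgeR adjusted p = 0.0681) and with upper quartile scaling (0.39, edgeR adjusted p = 0.163). The Flna to Flnc count ratio was 14.6 and 14.4 in wild type and 10.5 and 11.8 in KO 1 and KO 2.

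The 4 tropomyosin genes, whose coiled coils lie along actin filaments and set which myosins and cofilin may bind, went separate ways. Tpm4 was at 199 and 209 CPM in wild type and 754 and 640.4 CPM in KO 1 and KO 2, and rose 3.42-fold (log2 change 1.77 ± 0.17 SE, edgeR adjusted p = 0.000112). Tpm3 went from 641 and 687 CPM to 1118 and 947 CPM (0.64 ± 0.18 SE, edgeR adjusted p = 0.0220), and lost its call without WT 1 (0.60, edgeR adjusted p = 0.216), without WT 2 (0.69, edgeR adjusted p = 0.151) or with upper quartile scaling (0.44, edgeR adjusted p = 0.0923). Tpm1 was at 675 and 713 CPM in wild type and 858 and 940 CPM in KO 1 and KO 2 and missed the threshold (0.37 ± 0.17 SE, edgeR adjusted p = 0.115). Tpm1 and Tpm3 each encode many isoforms, which these counts sum.

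Tpm2, abundant in smooth muscle, was at 605 and 446 CPM in wild type and 462 and 272 CPM in KO 1 and KO 2, with overlapping groups (log2 difference -0.52 ± 0.28 SE, edgeR adjusted p = 0.181). With KO 1 left out it passed as lower (-0.95, edgeR adjusted p = 0.0249), as it did with no filter on low counts (-0.45, edgeR adjusted p = 0.0463). Per exon kilobase, Tpm2 took 41.0% and 32.6% of the tropomyosin total in WT 1 and WT 2, the largest part, and 19.4% and 13.6% in KO 1 and KO 2. Tpm4 took 17.8% and 20.1% in wild type, the smallest part, and 41.9% and 42.5% in KO 1 and KO 2, the largest. These ranks depend on the division by exon length. In CPM, Tpm2 was below Tpm1 and Tpm3 in both wild type libraries, and Tpm4 was below Tpm1 and Tpm3 in KO 1 and KO 2. The Tpm3 share stayed between 20.8% and 24.0% in all 4 libraries. The Tpm4 to Tpm3 count ratio was 0.310 and 0.303 in wild type and 0.674 and 0.676 in KO 1 and KO 2.

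The myosin II regulatory light chain genes among the members changed in opposite directions. Myl9, a regulatory light chain abundant in smooth muscle (chromosome 2, 156775420 to 156781658), was at 346 and 287 CPM in wild type and 127 and 99.4 CPM in KO 1 and KO 2. It fell 2.79-fold (log2 change -1.48 ± 0.19 SE, edgeR adjusted p = 0.000470) and kept that call in all 10 alternative settings. Myl12a, the broadly expressed light chain, rose 2.48-fold from 181 and 221 CPM to 470.1 and 526 CPM (1.31 ± 0.17 SE, edgeR adjusted p = 0.000572). Myl9 had 1.91 and 1.29 times the counts of Myl12a in WT 1 and WT 2 and 0.271 and 0.189 times in KO 1 and KO 2, the widest shift among the 15 ratios examined. Myl12b, a near-identical neighbour that shares 462 exon bases (13.8% of the exon length of Myl12a) on the same strand, was at 229 and 261 CPM in wild type and 316 and 340.1 CPM in KO 1 and KO 2 and did not pass (0.42 ± 0.16 SE, edgeR adjusted p = 0.0613), and how shared reads were divided is not given in the sources used here.

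The smooth muscle marker list fell beside Myl9. All 10 of its genes passed as lower, with a summed level of 5112 and 4329 CPM in wild type and 1732 and 1013 CPM in KO 1 and KO 2, and none of its genes was at 0 in both libraries of a group. The smooth muscle myosin heavy chain Myh11 was at 2491 and 1872 CPM against 484 and 294 CPM. The part of smooth muscle RNA in the change of Myl9, and in the values of Tpm2, was not tested.

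Of the 2 myosin heavy chains among the 42 genes, Myh10 passed and Myh9 did not. Myh10, the non-muscle IIB heavy chain, was at 49.2 and 78.9 CPM in wild type and 213 and 212 CPM in KO 1 and KO 2, a 3.31-fold rise (log2 change 1.73 ± 0.23 SE, edgeR adjusted p = 0.000586). Myh9, the abundant IIA heavy chain, was at 1526 and 1424 CPM in wild type and 2044 and 2203 CPM in KO 1 and KO 2. Its groups did not overlap, yet it did not pass (0.53 ± 0.19 SE, edgeR adjusted p = 0.0549). It passed without KO 1 (0.58, edgeR adjusted p = 0.0378), scaled by library size only (0.56, edgeR adjusted p = 0.0351), without a filter (0.60, edgeR adjusted p = 0.00937) and with DESeq2 (0.51, DESeq2 adjusted p = 0.0135). Myh10 made up 3.83% and 6.41% of the pair per exon kilobase in wild type and 11.4% and 10.6% in KO 1 and KO 2. Svil, supervillin, which binds both myosin II and filaments, was at 146 and 142 CPM against 165 and 168 CPM and did not pass (0.21 ± 0.15 SE, edgeR adjusted p = 0.307).

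**Figure D4:**
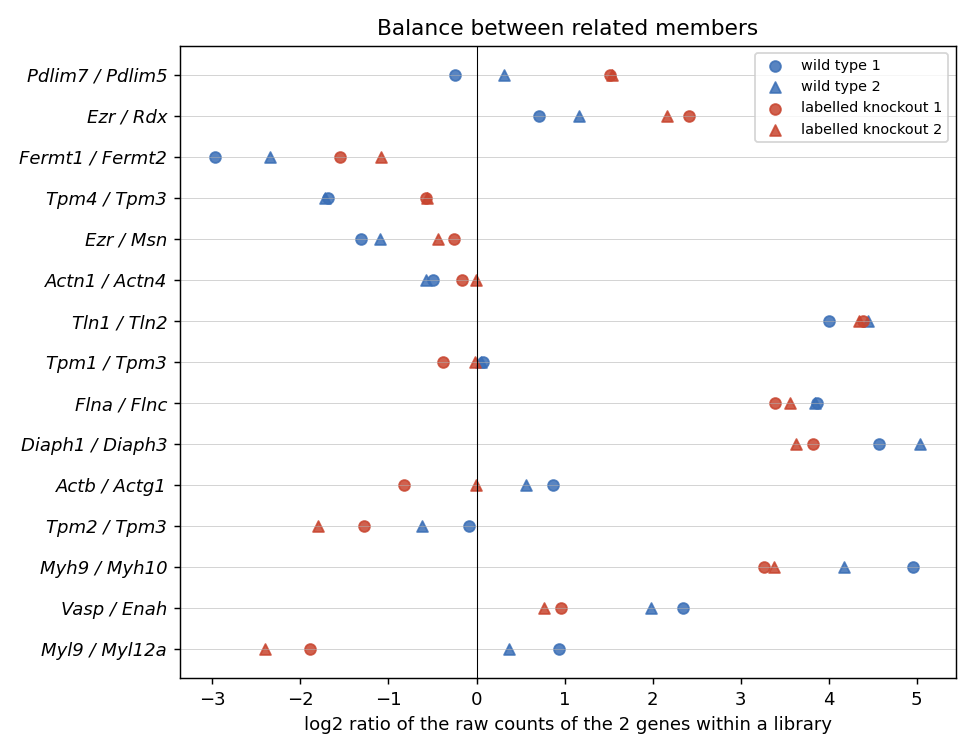
Log2 ratio of the raw counts of 2 related genes within each library, for 15 pairs ordered by their shift, wild type in blue and labelled knockout in red. In 14 pairs the 2 libraries labelled knockout lie on the same side of both wild type libraries, and Tln1 to Tln2 is the pair whose groups overlap. Myl9 to Myl12a moves furthest down and Pdlim7 to Pdlim5 furthest up. Among single genes, the groups did not overlap in 10392 of 13990 tested, in either direction. No such share was computed for other gene pairs.

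In the integrin linkage group, kindlins and the adhesion scaffold rose while talins did not pass. Fermt1 (kindlin-1, the form of epithelia such as skin and gut) was at 11.3 and 18.0 CPM in wild type and 70.4 and 105 CPM in KO 1 and KO 2, and its 5.95-fold rise was the largest of all members (log2 change 2.57 ± 0.29 SE, edgeR adjusted p = 0.000308). Fermt2 (kindlin-2, the widely expressed form) went from 88.2 and 91.0 CPM to 207 and 223 CPM, a 2.40-fold rise (1.26 ± 0.16 SE, edgeR adjusted p = 0.000421). Fermt1 made up 10.4% and 15.2% of the kindlins per exon kilobase in wild type and 23.7% and 30.0% in KO 1 and KO 2. Duct markers rose in the same libraries, from a sum of 2137 and 2636 CPM to 15344 and 15542 CPM, and their part in the rise of this epithelial gene was not tested.

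Talins, the other integrin activators, overlapped between groups. Tln1 was at 712 and 792 CPM in wild type and 827 and 620 CPM in KO 1 and KO 2, with KO 1 the highest and KO 2 the lowest of the 4 (log2 difference -0.056 ± 0.20 SE, edgeR adjusted p = 0.845). Tln2 was at 44.2 and 36.2 CPM against 39.4 and 30.6 CPM (-0.20 ± 0.23 SE, edgeR adjusted p = 0.508). Neither direction was stable, since without KO 2 the differences were 0.17 for Tln1 and 0.0062 for Tln2, and the difference of Tln1 was 0.027 without WT 2 and 0.019 without a filter. The Tln1 to Tln2 ratio overlapped too, at 16.1 and 21.9 in wild type and 20.96 and 20.3 in KO 1 and KO 2.

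Vinculin, which binds talin and actin under load, rose: Vcl went from 123 and 137 CPM in wild type to 312 and 253 CPM in KO 1 and KO 2, 2.17-fold (log2 change 1.12 ± 0.17 SE, edgeR adjusted p = 0.00124). A stretch of 25.5% of its exon bases lies opposite exons of Ap3m1, and whether the counting used strand is not given in the sources used here. Pxn (paxillin, the adhesion scaffold) rose 2.32-fold and Ptk2 (focal adhesion kinase) 1.77-fold. Parva (alpha-parvin) rose 1.75-fold, from 90.7 and 71.5 CPM to 164 and 121 CPM (0.81 ± 0.21 SE, edgeR adjusted p = 0.0137), and lost its call when WT 2 was left out (0.65, edgeR adjusted p = 0.0873) or KO 1 was (0.58, edgeR adjusted p = 0.0837).

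Ilk, the integrin-linked kinase that binds parvin, had 1 and 0 counts in WT 1 and WT 2 and 9 and 15 in KO 1 and KO 2, too few to be tested. Pooled, its ratio was 18.1 (exact binomial 95% interval 2.95 to 744, counting error only). Of its exon bases, 76.7% lie opposite exons of Taf10 and 12.9% opposite exons of Rrp8, and how reads there were assigned is not given in the sources used here. The count of Ilk is therefore not read as its level.

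Adaptors with LIM or PDZ and LIM domains rose in 5 of 7 cases, beside 22.0% of all genes tested. Pdlim7 (enigma, which binds alpha-actinin and tropomyosin) was at 54.1 and 76.6 CPM in wild type and 259 and 279 CPM in KO 1 and KO 2, a 4.11-fold rise (log2 change 2.04 ± 0.20 SE, edgeR adjusted p = 0.000129). Zyx, zyxin, which gathers at strained stress fibres, went from 157 and 171 CPM to 410 and 515 CPM and rose 2.82-fold (1.50 ± 0.18 SE, edgeR adjusted p = 0.000305). Tes (testin, a zyxin partner) rose 2.40-fold and Lpp, a zyxin relative, 1.88-fold. Pdlim5 went from 64.0 and 61.8 CPM to 90.8 and 95.8 CPM, a log2 change of 0.57 ± 0.16 SE (edgeR adjusted p = 0.0230). Its groups were well apart, but the call was lost without each of the libraries in turn (edgeR adjusted p from 0.0511 to 0.112), with upper quartile scaling (0.37, edgeR adjusted p = 0.102) and with DESeq2 (0.55, DESeq2 adjusted p = 0.0522). Pdlim7 had 0.845 and 1.24 times the counts of Pdlim5 in wild type and 2.86 and 2.91 times in KO 1 and KO 2.

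Csrp1 and Lima1 did not pass. Csrp1, a LIM protein of stress fibres abundant in smooth muscle, was at 280 and 276 CPM in wild type and 319 and 368 CPM in KO 1 and KO 2 (log2 difference 0.31 ± 0.16 SE, edgeR adjusted p = 0.149). Lima1 (EPLIN, which bundles filaments at junctions) was at 131 and 81.6 CPM against 152 and 137 CPM (0.44 ± 0.23 SE, edgeR adjusted p = 0.154), and the gap between WT 1 and WT 2, 0.68 on the log2 scale, was the widest of any member between these libraries. Lima1 passed without WT 1 (0.84, edgeR adjusted p = 0.0223) and with no filter (0.51, edgeR adjusted p = 0.0234).

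The ERM proteins link filaments to the plasma membrane and shape microvilli, and ezrin is the form of epithelia. Ezr was at 333 and 414 CPM in wild type and 1013 and 923 CPM in KO 1 and KO 2, a 2.59-fold rise (log2 change 1.37 ± 0.19 SE, edgeR adjusted p = 0.000638). Msn, moesin, known from leukocytes and endothelium, went from 827 and 886 CPM to 1212 and 1253 CPM (0.52 ± 0.18 SE, edgeR adjusted p = 0.0423). Its call was lost without WT 1 (0.49, edgeR adjusted p = 0.326), without WT 2 (0.58, edgeR adjusted p = 0.235), with DESeq2 size factors (0.51, edgeR adjusted p = 0.0662) and with upper quartile scaling (0.33, edgeR adjusted p = 0.185). Rdx, radixin, overlapped between groups at 203 and 185 CPM against 190.4 and 206 CPM (0.031 ± 0.16 SE, edgeR adjusted p = 0.893), and its difference was -0.032 without WT 2 and -0.17 with upper quartile scaling.

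Within the family, Ezr took 36.7% and 41.2% of the level per exon kilobase in wild type and 57.0% and 53.7% in KO 1 and KO 2, where it was the largest part. Msn had been the largest in wild type, at 47.4% and 45.8%, and was at 35.4% and 37.9% in KO 1 and KO 2. Without division by length, Msn had more counts than Ezr in all 4 libraries. Ezr had 0.402 and 0.467 times the counts of Msn in WT 1 and WT 2, and 0.836 and 0.737 times in KO 1 and KO 2. Macrophage markers rose in these libraries (12 of 12 passed, with a sum of 678 and 643 CPM in wild type and 7125 and 5023 CPM in KO 1 and KO 2). T and NK cell markers fell (9 of 9, from 1189 and 1190.1 CPM to 50.9 and 24.6 CPM), as did endothelial markers (7 of 8, from 1325 and 1273 CPM to 657 and 597 CPM). The part of these cells in the moesin level was not tested.

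Other regulators of actin, 71 tested genes in 5 lists, moved in both directions: 33 rose, 10 fell and 28 did not pass, with a median log2 change of 0.39. For these and for each list below, the shares over all genes tested were 22.0% higher and 20.2% lower. Among 23 adhesion adaptors outside the 42 genes, 13 rose and 2 fell (median 0.63). Fblim1 (migfilin, which binds filamin and kindlin) rose 7.34-fold, from 25.0 and 23.4 CPM to 169 and 186 CPM (edgeR adjusted p = 1.63e-05). Fhl3, a LIM protein, rose 4.73-fold, with 11 and 33 counts in wild type and 110 and 175 in KO 1 and KO 2. Ablim1, an actin-binding LIM protein, fell 2.46-fold, and Tns4 had 15 and 29 counts against 12 and 4. The call of Tns4 was lost when WT 1, WT 2 or KO 2 was left out (edgeR adjusted p = 0.0559, 0.243 and 0.279) or with DESeq2 (DESeq2 adjusted p = 0.105).

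Bundling proteins and other formins gave 7 rises and 3 falls in 13 genes (median 0.73). Pls3 (T-plastin) rose 4.33-fold, from 74.7 and 61.8 CPM to 320.4 and 270.2 CPM. Lcp1 (L-plastin, the leukocyte form) fell 2.07-fold, from 618 and 663 CPM to 366 and 255 CPM. Fscn1 (fascin, a filopodial bundler) fell 2.73-fold, a call that was lost when KO 2 was left out (-1.24 on the log2 scale, edgeR adjusted p = 0.0566). B and T cell markers fell and macrophage markers rose in the same libraries, and their part in the Lcp1 value was not tested.

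Of 15 tested genes of the Arp2/3 complex and its activators, 8 rose and 1 fell (median 0.53). Cyfip1 and Wasl, from the WAVE complex and N-WASP, rose 2.54-fold and 2.40-fold. The falling gene, Arpc5l, was 1.82-fold lower, and its call was lost when WT 1 (-0.61 on the log2 scale, edgeR adjusted p = 0.147) or KO 1 was left out (-0.69, edgeR adjusted p = 0.110). The number of genes called higher was 4, 3 and 5 with WT 1, WT 2 and KO 2 left out in turn, and 3 with upper quartile scaling. Capping, severing and monomer-binding proteins gave 4 rises and 3 falls in 14 genes (median 0.089), beside 22.0% higher and 20.2% lower over all genes tested. Twf1 (twinfilin-1) rose 3.34-fold and Dstn (destrin, a cofilin relative) 2.44-fold, while Cap2 fell 8.49-fold and Twf2 2.46-fold. Cap2 had 64 and 45 counts in WT 1 and WT 2 and 6 and 12 in KO 1 and KO 2. Without WT 2, 2 genes of that list rose.

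SRF and MRTF RNA did not pass. Srf was at 94.0 and 97.5 CPM in wild type and 70.2 and 83.0 CPM in KO 1 and KO 2 (log2 difference -0.32 ± 0.17 SE, edgeR adjusted p = 0.162), and its cofactors Mkl1 and Mkl2 (MRTF-A and MRTF-B) had differences of -0.055 and 0.19 that did not pass. In this list of 6 genes 1 rose and 1 fell (median 0.067), beside 22.0% higher and 20.2% lower over all genes tested. Elk3 had a log2 change of 0.51 (edgeR adjusted p = 0.0446) and lost its call with each of the 4 libraries left out in turn, with upper quartile scaling (0.31), with DESeq2 size factors (0.50) and with DESeq2 (0.49). Elk4 changed by -0.63 (edgeR adjusted p = 0.0220) and lost its call when WT 2, KO 1 or KO 2 was left out (-0.45, -0.57 and -0.65).

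**Figure D5:**
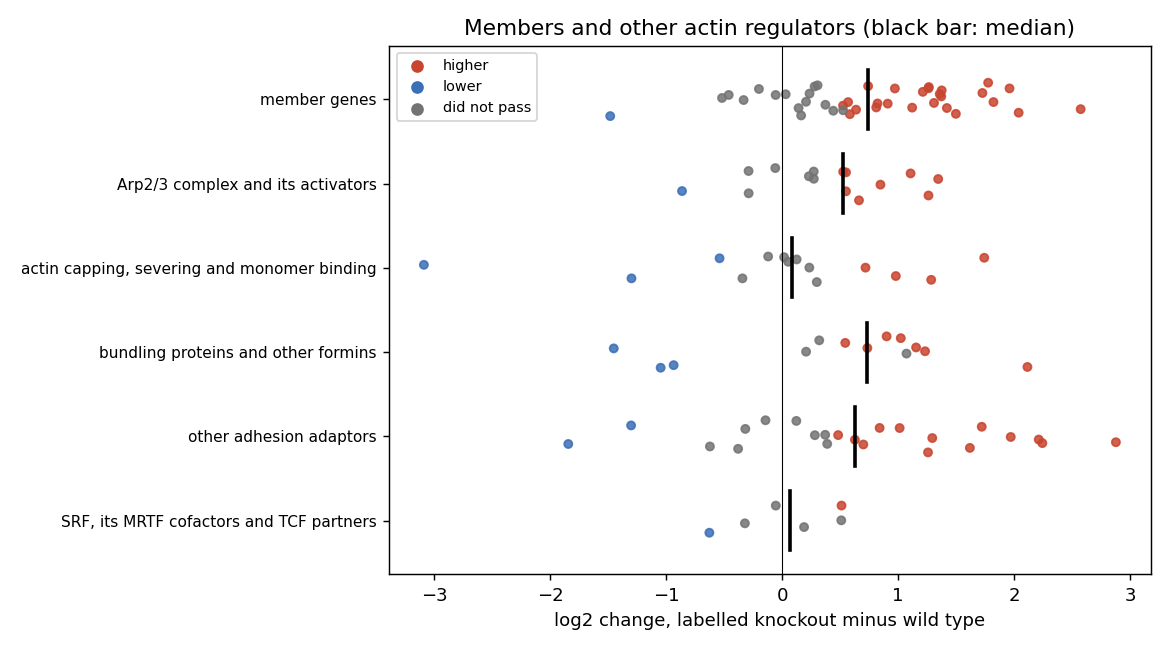
Log2 change (labelled knockout minus wild type) of the 41 tested members and of 71 other tested regulators of actin in 5 lists, 1 point per gene, coloured by call, with the list's median as a black bar and vertical scatter added for legibility. Medians run from 0.067 for SRF and its partners to 0.73 for bundling proteins and formins, beside 0.74 for the members.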

How the data were processed

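Each of the 4 deposited files holds the authors' raw read counts per gene model, with model coordinates. Per the submitters' processing notes the build was mm10 and the tools included TopHat and edgeR. A stranded kit was used, per the labels. The counting program, its annotation and whether it used strand: not given in the sources used here. Groups and replicate numbers come from the sample titles. No label says that the replicates are separate animals, and p-values then cover only the spread among these libraries, which may be technical.

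The edgeR 4.0.16 quasi-likelihood test (robust glmQLFit, two-sided) in R 4.3.3 was run on all 4 libraries after filterByExpr and TMM scaling, with genotype as the only term. It had 13990 genes and 2 residual degrees of freedom, and p-values were adjusted over all of them by Benjamini-Hochberg (threshold 0.05). CPM are counts scaled by TMM-corrected library size, and the SE is the log2 change divided by the root of the F statistic. A floor of 3 counts is 0.486 to 0.824 CPM. Levels per kilobase divide CPM by merged exon length in GENCODE M21, whose gene coordinates equalled those of the files for 37 of the 42 genes. Merged exons of all isoforms overstate the length of some transcripts. Exons of 16 members overlap another annotated gene, 4 of them (Ilk, Vcl, Cfl1 and Myl12a) over more than 10% of their length. Reads of abundant genes with processed copies (Actb, Actg1, Cfl1, Pfn1, Tpm3) may have been shared with those copies. The procedure was tested on simulated counts.

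The member genes and lists were chosen with earlier results of these data known. Every member is accounted for. Values in each library are given for the 10 largest changes, for members that fell or did not pass, and for related pairs whose count ratios do not overlap. Each further list gives those of its 2 largest rises and 2 largest falls that passed and are reported here. Some regulators in those lists are not reported here, and the lists' counts and medians leave them out. Alternatives were DESeq2 1.42.0, 3 other scalings, no filter, a replicate block and leaving out each library.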

Additional observations from a re-analysis of the deposited data

How the results depend on the processing

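The number of members that rose was 25, and 20 to 28 with another scaling, no filter, DESeq2 or the replicate block, and 19 to 24 without a library. The number that fell was 1, and 2 with upper quartile scaling, 2 with no filter on low counts, 3 with the replicate block and 1 to 3 when a library was left out, the additions coming from Pfn1, Tpm2 and Actb. The members' median log2 change was 0.74, and 0.54 with upper quartile scaling, 0.85 with no filter (42 members tested, Ilk among them) and 0.65 to 0.83 without a library. With no filter Ilk is also among the 28 members that rose, although its count is not read as its level. All genes changed numbered 5909, and 4206 to 4608 without a library. Members that did not pass changed sign in 9 cases: Cap1 (-0.032), Vasp (-0.055) and Rdx (-0.17) with upper quartile scaling, Tln1 with no filter (0.019), without WT 2 (0.027) and without KO 2 (0.17), Rdx without WT 2 (-0.032), Actb without KO 1 (0.039) and Tln2 without KO 2 (0.0062). Without a library these ran from -0.79 to 0.039 for Actb, -0.27 to 0.17 for Tln1, -0.39 to 0.0062 for Tln2 and -0.032 to 0.11 for Rdx. The cause was not tested. Deviations of same-numbered libraries from their group means correlated at 0.038 across genes, so the numbers are not taken to pair the libraries, and with the replicate block 24 members rose, 3 fell and 6656 genes changed (Flna and Msn lost their calls, Lima1, Pfn1 and Tpm2 gained one). Adding 0.5 to both counts changed the direction of 0 of the 15 count ratios. With 2 libraries a group, leaving out a library leaves a lone sample that is assumed to vary like the others. Genes at low level such as Diaph3, Fermt1, Fhl3, Cap2, Tns4 and Ilk rest on few counts.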
